A study of Mus musculus with 9 samples.

Results

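The mTOR complex 1 (mTORC1) genes examined here were the 10 genes Mtor, Rptor, Mlst8, Akt1s1, Deptor, Rheb, Tsc1, Tsc2, Ddit4 and Larp1, chosen by symbol from the 36410 rows of a ribosome footprint count table. All 10 were present and all 10 passed the filter on low counts, among 12678 genes tested. Together they held 0.0533% of all counts. The table covered 3 immortalized mouse striatal lines on a C57/BL6 background, with 3 libraries per line from 3 independent rounds of culture, and n = 3 libraries per line holds throughout. Control cells (STHdhQ7/Q7) carry 2 knock-in Htt alleles with 7 glutamines, HD-het cells (STHdhQ7/Q111) carry 1 allele with 7 and 1 with 111 glutamines, and HD-homo cells (STHdhQ111/Q111) carry 2 alleles with 111 glutamines. All cells, control included, received cycloheximide, which halts elongating ribosomes, for 10 min before lysis. Each genotype is 1 established line, so line and genotype cannot be told apart.

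mTORC1 is a protein kinase complex on the lysosome surface that couples nutrients and growth factors to protein synthesis and autophagy. Mtor encodes its catalytic subunit, Rptor (raptor) the subunit that recruits substrates, and Mlst8 a small subunit that binds the kinase domain, while Akt1s1 (PRAS40) and Deptor encode inhibitory subunits. The small GTPase Rheb switches the kinase on when bound to GTP, and the TSC complex, with the scaffold Tsc1 and the GTPase-activating subunit Tsc2, turns Rheb off. Ddit4 (REDD1) is a stress-induced inhibitor that acts through TSC, and Larp1 binds the 5' terminal oligopyrimidine (TOP) motif of mRNAs for ribosomal proteins and translation factors and holds their translation back when mTORC1 is inactive. In the striatum the pathway has been studied in Huntington disease because huntingtin and the striatal GTPase Rhes (Rasd2) have both been linked to it.

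Library totals ran from 22504543 to 41888701 counts, and values below are CPM, counts per 1000000 of a total scaled by trimmed-mean factors. Differences were tested with edgeR's quasi-likelihood F test, with p-values adjusted by the Benjamini-Hochberg method over all 12678 genes and 0.05 as the threshold. Of 13 striatal neuron markers 5 passed the filter, and the dopamine receptor genes Drd1 and Drd2 were at 0 in every library, whereas 8 of 9 neural precursor markers passed. The summed level of 9 fibroblast and mural markers was 6840 to 9760 CPM over the control libraries, 28690 to 30910 CPM over the HD-het libraries and 5744 to 7364 CPM over the HD-homo libraries, and all 8 that were tested were higher in HD-het cells than in control cells. In HD-homo against control cells 3 of these 8 were higher and 2 lower, with Pdgfra at 155 against 3.81 CPM and Acta2 at 267 against 4099 CPM. Summed neural precursor markers ran from 9600 to 9867 CPM, from 9021 to 9844 CPM and from 6021 to 6555 CPM in the same order, most of it Vim. The mean of Nes was 399.5, 1086 and 7.01 CPM and that of Sox2 was 51.1, 33.9 and 2.26 CPM. That of Pax6 was 17.3, 24.8 and 0.0759 CPM, and each of these genes was lowest in the HD-homo line. The precursor markers did not all move this way. In HD-homo against control cells 5 of the 8 tested were lower and 3 were higher (Dlx1, Dlx2 and Fabp7). Summed microglia, astrocyte and endothelial markers reached at most 26.8 CPM in any library. The part of these differences in the results below was not tested. In such bulk libraries fewer cells of a type and less RNA per cell cannot be told apart, and without matched mRNA values fewer mRNAs and fewer ribosomes per mRNA cannot be told apart either.

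The members lay on 8 chromosomes and their coding sequences spanned from 552 bases (Rheb) to 7647 bases (Mtor). Levels between genes are therefore compared as CPM per kb of coding sequence. In control cells this density was highest for Rheb at 256 ± 12.6 (SD), followed by Ddit4 at 69.96 ± 20.2, Larp1 at 52.4 ± 2.63, Akt1s1 at 38.4 ± 0.754 and Mlst8 at 29.2 ± 0.477. Ddit4 and Larp1 differed by less than the SD of Ddit4. Lower densities followed, with Rptor 8.71 ± 0.765, Deptor 7.83 ± 0.568, Tsc2 6.87 ± 0.312, Mtor 5.41 ± 0.222 and Tsc1 3.36 ± 0.232 CPM per kb, where the control libraries of Rptor overlapped those of Deptor and those of Deptor overlapped those of Tsc2. Rheb stood at the 93.9th percentile of 12291 genes with a coding length, and Mtor and Tsc1 stood at the 36.6th and 28.9th.

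**Figure D1:**
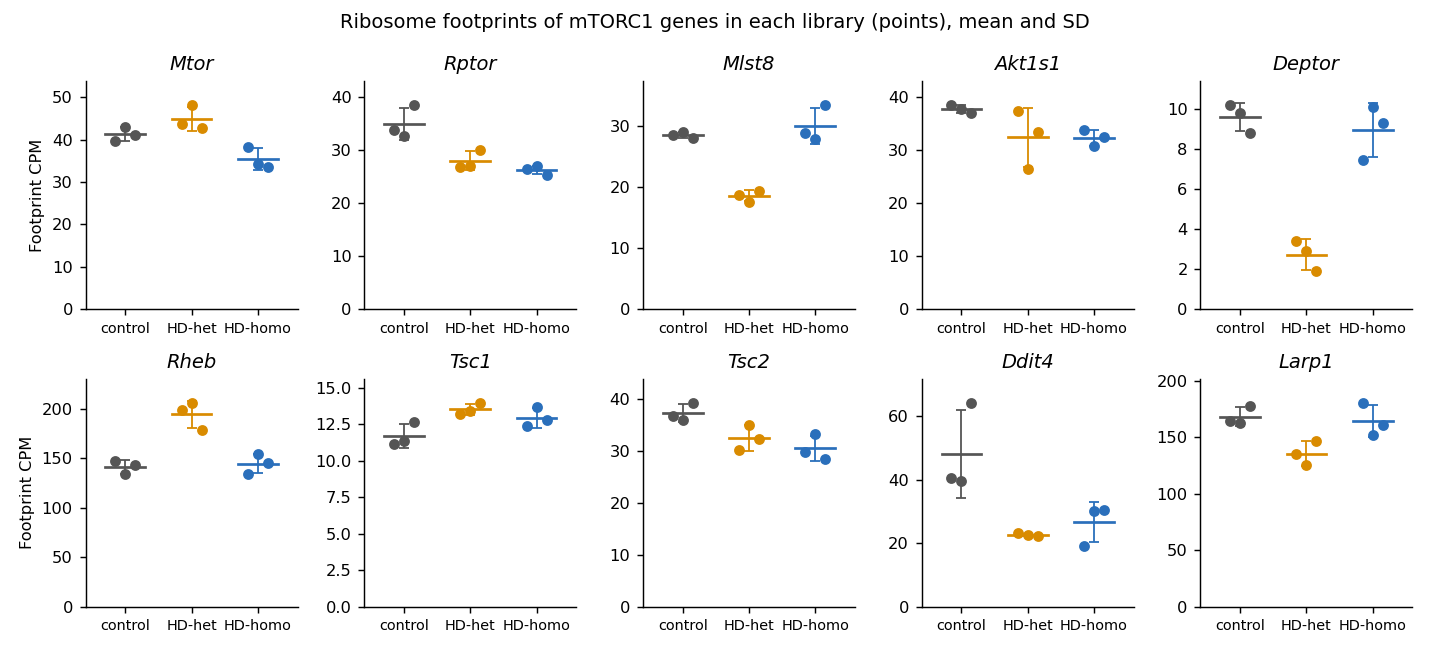
Footprint CPM of each mTORC1 gene (vertical axes, from 0) in the 3 control, 3 HD-het and 3 HD-homo libraries (points), with the mean (line) and SD (bar). Deptor, Mlst8 and Ddit4 lay lower and Rheb higher in every HD-het library than in any control library, and Ddit4 lay lower in every HD-homo library too.

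HD-het cells were first compared with control cells. Of the 10 genes, 5 were lower (Deptor, Ddit4, Mlst8, Rptor and Larp1) and 1 was higher (Rheb). Over all genes tested 29.1% were lower and 31.0% higher, so the count of lower members was above and that of higher members below these shares, in a list of only 10. The libraries of both lines did not overlap for 8 of 10 members, against 71.2% of all genes. The median log2 fold change was -0.27 over the members and 0.02 over all genes.

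In HD-homo cells the counts against control were smaller. Of the 10 genes 0 were higher and 3 were lower (Ddit4, Rptor and Tsc2), against 23.3% higher and 22.3% lower over all genes, and 0 were higher also at an unadjusted p under 0.05 in edgeR or by DESeq2. With either of the length offsets described below 1 member was higher and 1 lower. Of all 12678 genes 2963 were then higher and 2960 lower with transcript length, and 2958 and 2934 with coding length. Libraries did not overlap for 5 of 10 members, against 55.5% of all genes, and the median was -0.16 against 0.02. Between the mutant lines 3 members were higher in HD-homo cells than in HD-het cells (Deptor, Mlst8 and Larp1) and 2 were lower (Rheb and Mtor), against 34.6% higher and 32.8% lower over all genes. Libraries did not overlap for 5 of 10 members in that comparison, against 69.5%. In the test of any difference among the 3 lines 8 of 10 members passed, against 78.4% of all genes, and the exceptions were Akt1s1 (adjusted p 0.15) and Tsc1 (adjusted p 0.156). The 3 comparisons share libraries and are not independent of each other.

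Among the core subunits, Mlst8 showed the clearest difference. Mlst8 (chromosome 17, 24473550 to 24479114, GRCm38.p6, minus strand) gave 28.6, 29.0 and 28.1 CPM in the control libraries, 18.8, 17.6 and 19.4 CPM in the HD-het libraries and 28.8, 27.9 and 33.4 CPM in the HD-homo libraries. Every HD-het library lay below all others, and control and HD-homo libraries overlapped. Mlst8 was 1.54-fold lower in HD-het cells than in control cells (-0.62 on the log2 scale, SE 0.09, adjusted p 1.71e-04) and 1.62-fold higher in HD-homo cells than in HD-het cells (0.70, SE 0.09, adjusted p 5.25e-05). In HD-homo against control cells the log2 difference was 0.07, with a 95% interval from -0.11 to 0.25. Across the 19 alternative settings the fold change in HD-het cells stayed between -0.69 and -0.50, and every setting called it. Mlst8 overlaps Bricd5 in the annotation, and since the use of strand in counting is not given in the sources used here, reads of the shared stretch cannot be assigned.

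Rptor (chromosome 11, 119602905 to 119899591) was lower in both mutant lines. It gave 33.7, 32.6 and 38.4 CPM in the control libraries, 26.9, 27.0 and 30.0 CPM in the HD-het libraries and 26.3, 26.9 and 25.4 CPM in the HD-homo libraries, with every mutant library below every control library. The log2 fold change was -0.32 (SE 0.09, adjusted p 0.0106) in HD-het cells and -0.41 (SE 0.09, adjusted p 0.00359) in HD-homo cells. Without control replicate 3, the highest library, the HD-het difference was -0.25 (adjusted p 0.0546) and no longer passed. With offsets that remove the trends with transcript length and GC content the HD-homo difference was -0.17 (adjusted p 0.17).

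Mtor itself (chromosome 4, 148448582 to 148557685) did not pass the threshold against control in either mutant line. It gave 39.7, 43.1 and 41.2 CPM in the control libraries, 43.7, 48.1 and 42.8 CPM in the HD-het libraries and 38.3, 34.2 and 33.6 CPM in the HD-homo libraries. The HD-homo libraries were the lowest of the 9, and control and HD-het libraries overlapped. The log2 fold change was 0.12 (SE 0.09, adjusted p 0.258) in HD-het cells and -0.22 (SE 0.09, adjusted p 0.0568) in HD-homo cells. Between the mutant lines Mtor was 1.27-fold lower in HD-homo cells (-0.34, SE 0.09, adjusted p 0.00468). The HD-homo difference from control passed without HD-het replicate 2, HD-het replicate 3 or HD-homo replicate 1 (adjusted p 0.0428, 0.0457 and 0.0248). With offsets for length it turned to 0.04 or 0.18, and the direction between the mutant lines also depended on the treatment of length, described below.

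The inhibitory subunits differed from each other. Deptor (chromosome 15, 55112317 to 55259273), the gene of the subunit that binds and restrains the kinase in both mTOR complexes, gave 10.2, 9.80 and 8.84 CPM in the control libraries, 3.42, 2.89 and 1.89 CPM in the HD-het libraries and 7.48, 10.1 and 9.31 CPM in the HD-homo libraries. The HD-het libraries lay far below the other 6, which overlapped. Deptor was 3.47-fold lower in HD-het cells than in control cells (-1.80 on the log2 scale, SE 0.19, adjusted p 1.47e-05), the largest change of the 10 genes and at the 2.48th percentile of log2 fold changes over all genes. It was 3.23-fold higher in HD-homo cells than in HD-het cells (1.69, SE 0.19, adjusted p 1.45e-05), and HD-homo differed from control by -0.10 with an interval from -0.45 to 0.24. Deptor was the least covered member, with 40 to 412 counts per library, and its calls held under all 19 alternatives, between -2.07 and -1.63 in HD-het against control. Deptor overlaps the long noncoding RNA gene Gm9920, as Rptor, Larp1 and Mtor overlap other genes in the annotation.

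Akt1s1 (chromosome 7, 44849224 to 44855421), which encodes PRAS40, passed in no comparison. It gave 38.5, 37.8 and 37.0 CPM in the control libraries, 37.5, 26.4 and 33.5 CPM in the HD-het libraries and 33.7, 30.8 and 32.5 CPM in the HD-homo libraries. HD-het replicate 2 was the lowest of the 9 libraries and HD-het replicate 1 lay within the control range. The log2 fold change was -0.22 in both mutant lines, with intervals from -0.45 to 0.01 in each. Without HD-het replicate 1 it was -0.35 in HD-het cells (adjusted p 0.0260), and without HD-het replicate 2, or when the fit held the 6 control and HD-homo libraries alone, the HD-homo difference passed (adjusted p 0.0396 and 0.0444).

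Rheb (chromosome 5, 24802823 to 24842361, minus strand) was the one member that was higher in HD-het cells than in control cells. It gave 148, 134 and 143 CPM in the control libraries, 198, 206 and 179 CPM in the HD-het libraries and 134, 154 and 145 CPM in the HD-homo libraries. All 3 HD-het libraries were above the other 6, and control and HD-homo libraries overlapped. Rheb was 1.37-fold higher in HD-het cells than in control cells (0.46 on the log2 scale, SE 0.09, adjusted p 7.46e-04) and 1.34-fold lower in HD-homo cells than in HD-het cells (-0.43, SE 0.09, adjusted p 9.23e-04). Both calls held under all 19 alternatives, with 0.40 to 0.64 for the first. HD-homo and control cells differed by 0.03, with an interval from -0.14 to 0.20. Its paralog Rhebl1 moved the other way in HD-het cells, from 4.79 to 2.05 CPM (-1.23 on the log2 scale, SE 0.18, adjusted p 1.46e-04). Rhebl1 stood at 8.48 against 256 CPM per kb for Rheb in control cells.

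Tsc1 and Tsc2 differed by at most 1.22-fold between lines. Tsc2 (chromosome 17, 24595816 to 24632676) gave 36.7, 36.0 and 39.2 CPM in the control libraries, 30.1, 35.0 and 32.3 CPM in the HD-het libraries and 29.9, 33.2 and 28.5 CPM in the HD-homo libraries. All mutant libraries lay below the control libraries. The log2 fold change was -0.20 (SE 0.09, adjusted p 0.0878) in HD-het cells and -0.29 (SE 0.09, adjusted p 0.0256) in HD-homo cells. The HD-homo call was lost under 8 of 19 alternatives, among them scaling to total counts (-0.26, adjusted p 0.0697) and leaving out control replicate 1 or 3 or HD-homo replicate 1 or 3 (adjusted p 0.0527, 0.0891, 0.0561 and 0.0844). Without HD-het replicate 2 the HD-het difference passed, at -0.27 (adjusted p 0.0467). Tsc2 overlaps Pkd1 in the annotation.

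Tsc1 (chromosome 2, 28640993 to 28691172) gave 11.2, 11.3 and 12.6 CPM in the control libraries, 13.2, 13.4 and 13.9 CPM in the HD-het libraries and 12.4, 13.7 and 12.8 CPM in the HD-homo libraries. The HD-het libraries lay just above the control libraries. The log2 fold change was 0.21 (SE 0.10, adjusted p 0.0844) in HD-het cells and 0.14 (SE 0.10, adjusted p 0.249) in HD-homo cells, and neither passed.

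Ddit4 was the only member whose lower level passed the threshold in both mutant lines under every alternative run. Ddit4 (chromosome 10, 59949675 to 59951770, minus strand) gave 40.7, 39.5 and 64.1 CPM in the control libraries, 23.1, 22.6 and 22.3 CPM in the HD-het libraries and 19.2, 30.3 and 30.5 CPM in the HD-homo libraries. All 6 mutant libraries lay below the 3 control libraries, control replicate 3 stood above the other control libraries, and the HD-het libraries were close to each other. Ddit4 was 2.12-fold lower in HD-het cells (-1.08 on the log2 scale, SE 0.21, adjusted p 8.54e-04) and 1.80-fold lower in HD-homo cells (-0.85, SE 0.20, adjusted p 0.00546). Without control replicate 3 the values were -0.83 (adjusted p 0.00213) and -0.59 (adjusted p 0.0182). The mutant lines differed from each other by 0.23, with an interval from -0.17 to 0.64. The paralog Ddit4l (REDD2) was listed at 0, 0 and 1 counts in the control libraries, at 35, 51 and 13 counts in HD-het and at 56, 125 and 83 counts in HD-homo libraries (adjusted p 2.00e-04 and 1.59e-05 against control). Per kb of coding sequence Ddit4l stood at 5.77 against 38.8 CPM for Ddit4 in HD-homo cells, its highest line.

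The 250 bases upstream of the annotated starts are given for Ddit4 and Rheb, as RefSeq promoter windows of GRCm38.p6. Ddit4 passed as lower in both lines under every alternative run, and Rheb was the one member that was higher in HD-het cells. Capitals mark matches, on either strand, to ACGTG and GCGTG, the cores of hypoxia response elements, to CACGTG, an E-box bound by MYC and TFEB family factors that contains ACGTG on both strands, and to TGATGNAA, the core of the ATF4 element. Of the 10 members 9 had a window, the exception being Deptor.
Ddit4, chr10:59951771-59952020, minus strand: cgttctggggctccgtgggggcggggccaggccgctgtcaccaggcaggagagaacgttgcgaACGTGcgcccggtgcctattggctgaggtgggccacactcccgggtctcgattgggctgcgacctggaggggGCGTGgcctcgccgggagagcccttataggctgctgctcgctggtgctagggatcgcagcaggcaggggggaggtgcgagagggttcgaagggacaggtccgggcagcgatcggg
Rheb, chr5:24842362-24842611, minus strand: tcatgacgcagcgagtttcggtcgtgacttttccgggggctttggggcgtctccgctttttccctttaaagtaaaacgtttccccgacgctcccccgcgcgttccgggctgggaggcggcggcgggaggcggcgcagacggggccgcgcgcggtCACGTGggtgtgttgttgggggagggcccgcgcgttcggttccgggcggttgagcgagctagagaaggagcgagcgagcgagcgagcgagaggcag
The Ddit4 window held ACGTG 187 bases and GCGTG 115 bases before the start, and the Rheb window held CACGTG 96 bases before the start. Over all 32851 windows 16.6% held ACGTG, 28.2% GCGTG, 6.02% CACGTG and 3.45% TGATGNAA. None of the 9 member windows held TGATGNAA, only that of Rheb held CACGTG, and those of Mlst8 and Mtor held none of the 4. ACGTG was in the windows of Ddit4, Rheb and Rptor, and GCGTG in those of Ddit4, Rptor, Akt1s1, Larp1, Tsc1 and Tsc2. Of these genes Akt1s1 and Tsc1 passed in no comparison with all 9 libraries fitted and no offsets. The window of Rptor held ACGTG 34 bases and GCGTG 14 bases before the start. A TOP-like start, a C at the annotated start followed by at least 4 pyrimidines, was found at none of the 9 members, at 2.51% of all windows and at 5 of 20 windows of the TOP genes listed below. The windows of Larp1 (58008814 to 58009063) and Akt1s1 (44850122 to 44850371) lie inside the gene spans given for them. Those of Tsc1 (28640983 to 28641232), Tsc2 (24632628 to 24632877) and Mlst8 (24479079 to 24479328) lie partly inside theirs. Each member had 1 window, so other starts of the same gene were not searched. These are matches of letters only.

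Larp1 (chromosome 11, 57973418 to 58062034) was at its lowest in the HD-het line. It gave 164, 163 and 178 CPM in the control libraries, 135, 125 and 147 CPM in the HD-het libraries and 180.4, 152 and 162 CPM in the HD-homo libraries, and the HD-het libraries were the lowest of the 9. The log2 fold change was -0.31 (SE 0.09, adjusted p 0.0116) in HD-het against control cells and 0.28 (SE 0.09, adjusted p 0.0182) in HD-homo against HD-het cells. The first was called under all 19 alternatives. The second did not pass when the 6 HD-het and HD-homo libraries were fitted alone (0.25, adjusted p 0.0561) or without HD-het replicate 2 or HD-homo replicate 1 (0.22 and 0.21, adjusted p 0.0708 and 0.0642). Its paralog Larp1b was at 14.1, 17.1 and 14.9 CPM for control, HD-het and HD-homo lines and passed in no comparison without offsets, but in HD-het cells with transcript length offsets (0.36, adjusted p 0.0264).

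The lines differed in how footprint counts changed with transcript length, which bears on the long members. Over all genes in 6 bins of transcript length, the median log2 fold change in HD-het against control cells rose from -0.24 in the shortest bin to 0.21 in the longest. It fell from 0.10 to -0.12 in HD-homo against control cells and from 0.34 to -0.29 between the mutant lines. Mtor, Rptor, Deptor, Tsc1, Tsc2 and Larp1 all lie in the longest bin. When offsets removed the trend of each library with GC content and transcript length, Mtor turned to -0.25 in HD-het against control cells (adjusted p 0.0188) and to 0.29 in HD-homo against HD-het cells (adjusted p 0.00787). Tsc2 then passed in HD-het cells at -0.41 (adjusted p 0.00304) and no longer in HD-homo cells at -0.07 (adjusted p 0.569), and Tsc1 passed in HD-homo cells at 0.36 (adjusted p 0.0115).

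With coding length in place of transcript length the same signs held for Mtor, at -0.26 and 0.44, and for Tsc2 and Rptor. In HD-homo against HD-het cells 7 members were then higher and 1 lower with either length, in place of 3 and 2. Of all 12678 genes 4325 were higher and 4157 lower there with transcript length, and 4381 and 4152 with coding length. Deptor, Mlst8, Rheb, Ddit4 and Larp1 kept the direction and the call of each of their called differences with either length. Differences from control that did not pass could turn. In HD-homo cells Mtor went from -0.22 to 0.04 and 0.18 with transcript and coding length, Rheb from 0.03 to -0.14 and -0.08, Larp1 from -0.03 to 0.19 and 0.09, and Deptor from -0.10 to 0.07 with transcript length, while Tsc1 in HD-het cells went from 0.21 to -0.09 and 0.02. None of these passed with offsets. Rptor kept its call in HD-het but not in HD-homo cells, and Mtor, Rptor, Tsc1 and Tsc2 turned their sign between the mutant lines.

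**Figure D2:**
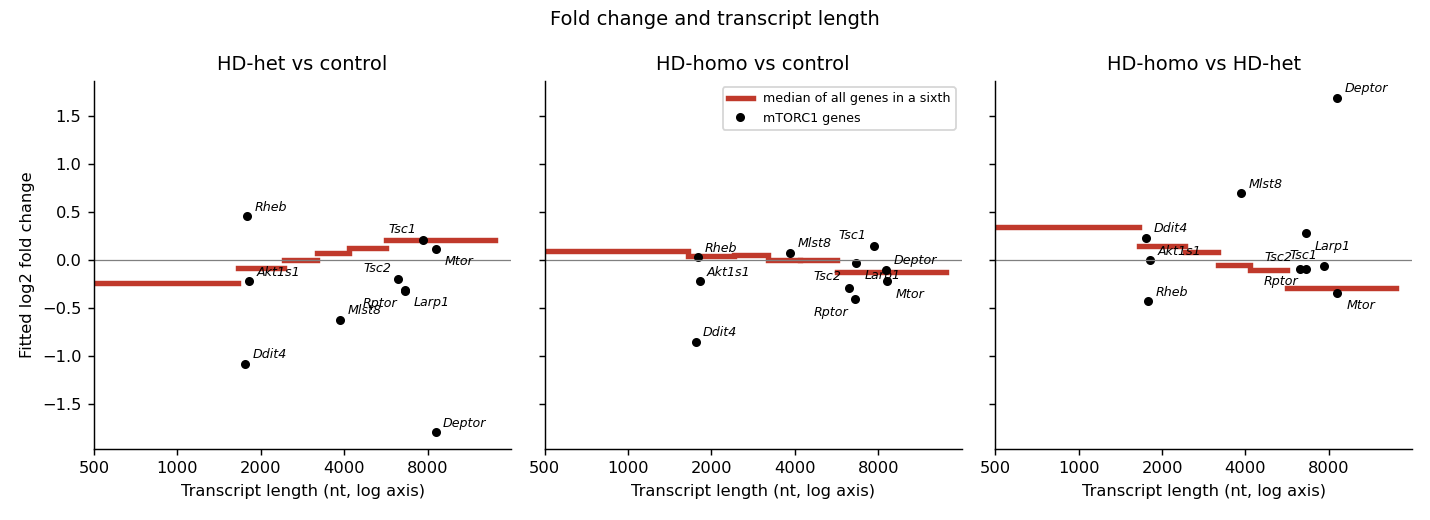
Fitted log2 fold change (vertical axis) against transcript length in nt (log axis) for the mTORC1 genes (black points) and the median of all genes in each of 6 bins of transcript length (red lines, where those of the shortest and the longest bin are not drawn over their whole range). In HD-het against control cells the medians run from -0.24 to 0.21, and Mtor and Tsc1 sit close to the median of the longest genes while Deptor, Mlst8 and Rheb stand away from theirs.

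**Figure D3:**
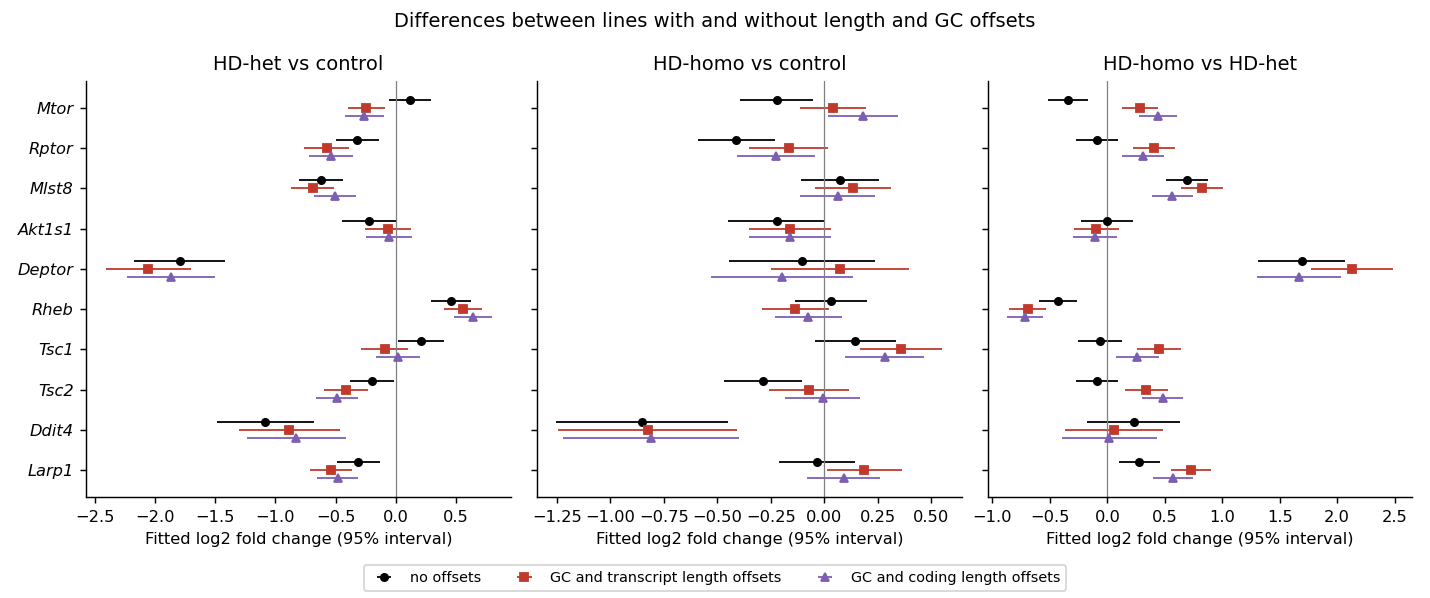
Fitted log2 fold change with its 95% interval (horizontal axes, 1 panel per comparison, each with its own range) for each mTORC1 gene, without offsets (black) and with offsets for transcript length and GC content (red) or coding length (violet). Deptor, Mlst8, Rheb, Ddit4 and Larp1 keep their sides in HD-het against control cells, whereas Mtor moves from 0.12 to -0.25 and -0.26.

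Levels of subunits were next set against each other within each library, as ratios of CPM per kb of coding sequence. The 7 ratios gave 21 comparisons, of which 15 had groups that did not overlap. Levels of single genes did not overlap for 71.2% of all genes in HD-het and 55.5% in HD-homo against control cells. Between the mutant lines it was 69.5%, and ratios of other genes were not counted. With 3 against 3 libraries an exact permutation test, 2-sided, cannot go below p 0.10, or 0.14 after Benjamini-Hochberg adjustment over the 21, so none could pass. The ratio of Mlst8 to Mtor was 5.62, 5.26 and 5.33 over the 3 control libraries, 3.35, 2.86 and 3.54 over those of HD-het and 5.88, 6.38 and 7.77 over those of HD-homo cells. The ratio of Rptor to Mtor was 1.61 ± 0.167 (SD) in the control cells, 1.20 ± 0.134 in the HD-het cells and 1.42 ± 0.0969 in the HD-homo cells. Both means, taken without offsets, were lowest in HD-het cells, but for Rptor over Mtor HD-het and HD-homo libraries overlapped.

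Rictor marks the second mTOR complex, in which it takes the place of raptor. The ratio of Rictor to Mtor was 1.71 ± 0.072 in the control cells, 1.18 ± 0.0466 in the HD-het cells and 2.24 ± 0.212 in the HD-homo cells, and no 2 lines overlapped. The ratio of Deptor to Mtor was 1.60, 1.42 and 1.34 over the 3 control libraries, 0.487, 0.374 and 0.276 over those of HD-het and 1.22, 1.84 and 1.73 over those of HD-homo cells. The ratio of Tsc2 to Tsc1 was 2.05 ± 0.0605 in the control cells, 1.54 ± 0.116 in the HD-het cells and 1.51 ± 0.0705 in the HD-homo cells, and all mutant libraries lay below the control libraries. The ratio of Tbc1d7, the third TSC subunit, to Tsc1 was 5.39 ± 0.548, 5.51 ± 0.289 and 8.68 ± 0.991.

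Since the genes of a ratio differ in length, the ratios were also taken from the fits with length offsets. The HD-het difference from control of the Mlst8 ratio was -0.74 as a difference of fitted log2 fold changes, and -0.45 or -0.24 when taken from fits with transcript length or coding length offsets. For the Deptor ratio the same values were -1.92, -1.81 and -1.60, and for the Rictor ratio -0.53, -0.43 and -0.41. For Tsc2 over Tsc1 they were -0.40, -0.32 and -0.51 in HD-het cells and -0.43, -0.43 and -0.29 in HD-homo cells. The ratio of Akt1s1 to Mtor changed sign, from -0.34 to 0.18 and 0.21. Between the mutant lines the Mlst8 ratio went from 1.04 to 0.54 and 0.12. For Rptor over Mtor the values were -0.44, -0.33 and -0.28 in HD-het against control and -0.19, -0.21 and -0.40 in HD-homo against control. Between the mutant lines the Rptor ratio went from 0.25 to 0.12 and -0.13, so with coding length offsets it was lowest in HD-homo cells. For Tbc1d7 over Tsc1 the values were 0.69, 0.38 and 0.49 in HD-homo against control, 0.04, 0.61 and 0.33 in HD-het against control and 0.66, -0.23 and 0.16 between the mutant lines.

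**Figure D4:**
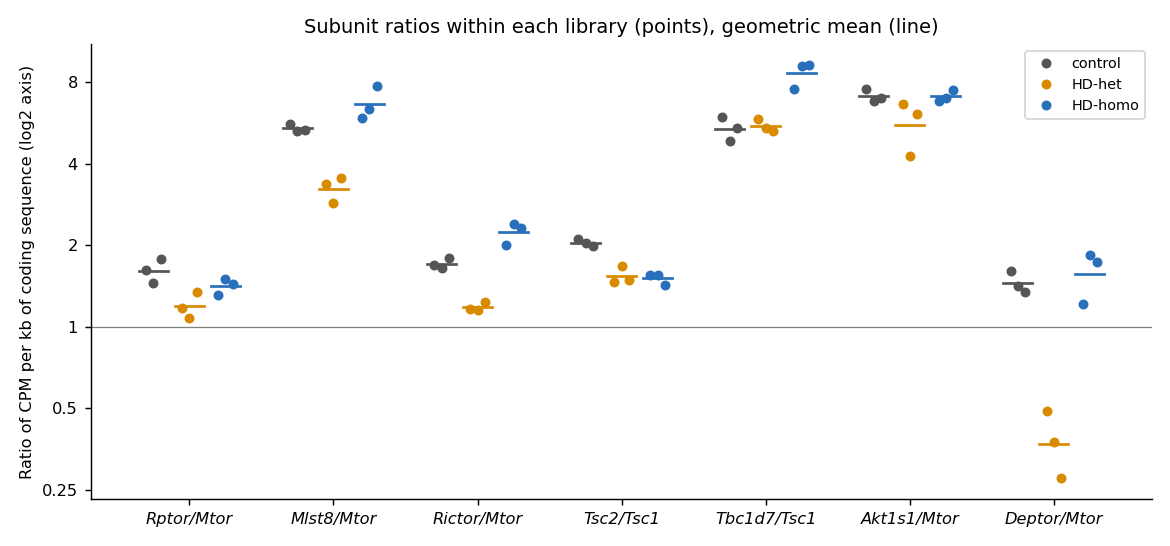
Ratio of CPM per kb of coding sequence between 2 genes of a complex in each library (points, log2 axis) with the geometric mean (line), for control (grey), HD-het (orange) and HD-homo (blue) cells. The Deptor to Mtor ratio lies between 0.276 and 0.487 in the 3 HD-het libraries and between 1.22 and 1.84 in the other 6.

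The genes around the complex were counted in lists written from general knowledge. Over all genes tested, 31.0% were higher and 29.1% lower in HD-het than in control cells. In HD-homo cells 23.3% were higher and 22.3% lower, and these shares apply to each list below. Among 11 partners and paralogs, 2 were higher and 3 lower in HD-het cells and 6 higher and 1 lower in HD-homo cells, with medians of 0.05 and 0.36. Telo2, which helps to assemble the kinase, was lower in both, at -0.93 (SE 0.13, adjusted p 1.35e-04) and -0.71 (SE 0.13, adjusted p 0.00111). Rictor was lower in HD-het cells (-0.41, SE 0.08, adjusted p 8.86e-04), and Mapkap1 (SIN1) was higher in HD-homo cells (0.36, SE 0.09, adjusted p 0.00609). Tbc1d7 was 1.79-fold higher in HD-homo cells (0.84, SE 0.13, adjusted p 2.58e-04). With either length offset Rictor also passed in HD-homo cells and Tbc1d7 in HD-het cells, both upward.

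Of 31 genes of the lysosomal amino acid branch 6 were higher and 7 lower in HD-het cells (median -0.08), and 9 were higher and 5 lower in HD-homo cells (median 0.10). The leucine sensor genes Sesn1 and Sesn2 moved in opposite directions in HD-het cells, Sesn1 from 11.9 to 4.82 CPM (-1.30, SE 0.15, adjusted p 2.50e-05) and Sesn2 from 6.41 to 12.9 CPM (1.01, SE 0.14, adjusted p 8.03e-05). Rragd, a Rag GTPase that tethers mTORC1 to the lysosome, was 3.71-fold higher in HD-het cells (adjusted p 8.28e-06) and 2.24-fold lower in HD-homo cells (adjusted p 0.00171). The arginine sensor gene Castor1 had 9, 10 and 7 counts in control, 1, 0 and 0 counts in HD-het and 148, 60 and 61 counts in HD-homo libraries. Rraga was lower in HD-homo cells (-0.31, SE 0.08, adjusted p 0.00766), and Rragc and Flcn passed in neither line against control, with or without offsets. Depdc5 and Lamtor1 passed in neither line without offsets. With transcript length offsets Depdc5 passed in both (-0.53 in HD-het cells, adjusted p 0.00394, and 0.39 in HD-homo cells, adjusted p 0.0246), and with coding length offsets Lamtor1 passed in HD-het cells (0.35, adjusted p 0.0393).

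In the growth factor and energy branch 25 of 26 genes were tested, and 10 were higher and 9 lower in HD-het cells (median 0.07) and 5 higher and 8 lower in HD-homo cells (median -0.18). The gene left out was Rasd2 (Rhes), at 0 CPM in control and a mean of 0.168 CPM in HD-het cells and 0.0185 CPM in HD-homo cells. Grb10, an mTORC1 substrate that damps insulin signalling, rose from 264 to 813 CPM in HD-homo cells (1.62 on the log2 scale, SE 0.10, adjusted p 2.13e-07) and fell to 188 CPM in HD-het cells (-0.49, SE 0.10, adjusted p 0.00122). Prkaa1, a catalytic subunit of the energy sensor AMPK, was 1.67-fold lower in HD-het cells (adjusted p 1.29e-05) and at 187 against 179 CPM in HD-homo cells. Irs1 was lower in both lines (adjusted p 0.0188 and 0.00338), and Akt1 and Stk11 passed in neither line against control.

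Of 19 substrates and effectors 2 were higher and 8 lower in HD-het cells, and 3 were higher and 3 lower in HD-homo cells. The S6 kinase gene Rps6kb1 had log2 fold changes of -0.09 and -0.00 in the 2 lines and did not pass. Eif4ebp2, a translation repressor that mTORC1 inactivates, was 2.03-fold lower in HD-het cells (-1.02, SE 0.11, adjusted p 1.13e-05). Eif4ebp1 was lower in HD-homo cells (-0.25, SE 0.08, adjusted p 0.0238), Ulk1, the autophagy kinase, was higher in HD-het cells (0.45, SE 0.11, adjusted p 0.00415) but not with either length offset (0.26 and 0.28, adjusted p 0.0757 and 0.0507), and Pdcd4 was higher in HD-homo cells (0.90, SE 0.21, adjusted p 0.00414). With transcript length offsets the HD-het median turned sign for the lysosomal branch (0.02), for the growth factor and energy branch (-0.07), for the partners and paralogs (-0.045) and for the hypoxia targets counted below (from 0.04 to -0.03). With coding length offsets it turned only for the growth factor and energy branch (-0.035) among these 4 lists.

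TOP mRNAs, whose translation answers to mTORC1 and Larp1, were lower in HD-het cells. Of 24 tested TOP mRNAs other than those of ribosomal proteins, 22 were lower and 0 higher than in control cells (median log2 fold change -0.80), with 0 higher also at an unadjusted p under 0.05 in edgeR or by DESeq2. In HD-homo cells 5 were higher and 3 lower (median 0.10). Between the mutant lines 22 were higher and 1 lower in HD-homo cells (median 0.66), against 34.6% and 32.8% of all genes. Eef2, the elongation factor, gave 4906, 2841 and 4581 CPM for control, HD-het and HD-homo lines, with a fitted difference of -0.79 on the log2 scale (SE 0.07, adjusted p 5.63e-06) in HD-het cells. Eef1a1 fell by 0.43 (SE 0.07, adjusted p 4.91e-04) and Pabpc1 by 0.22 (SE 0.09, adjusted p 0.0474) there. With the transcript length offsets 20 of 24 were lower in HD-het cells (median -0.46), and 21 with coding length offsets (median -0.58).

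Ddit4 is known to be induced by ATF4, by hypoxia and by glucocorticoids, and targets of each were counted. Whether any of them had a part in the Ddit4 differences was not tested. Of 22 ATF4 targets 17 were higher and 4 lower in HD-het cells (median 0.78). Trib3 was 6.63-fold higher (adjusted p 1.51e-06) and Asns 1.68-fold higher (adjusted p 1.38e-04) there. In HD-homo cells 7 were higher and 3 lower (median 0.08), with Trib3 1.89-fold higher (adjusted p 0.00433). Of 18 hypoxia targets 6 were higher and 4 lower in HD-het cells and 8 higher and 4 lower in HD-homo cells. Over all genes 31.0% were higher and 29.1% lower in HD-het cells, and 23.3% and 22.3% in HD-homo cells. Of 7 tested glucocorticoid targets 5 were higher and 1 lower in HD-het cells and 3 higher and 0 lower in HD-homo cells, where edgeR gave 0 lower at an unadjusted p under 0.05 and DESeq2 gave 0. With either length offset, however, 3 of these 7 were higher and 1 lower in HD-homo cells. In HD-het cells 4 of them were higher with transcript length and 5 with coding length offsets, and 1 was lower with either. This list holds the receptor gene Nr3c1 itself, counted as higher in both lines, and the ATF4 list holds Atf4 itself, counted as higher in HD-het cells.

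**Figure D5:**
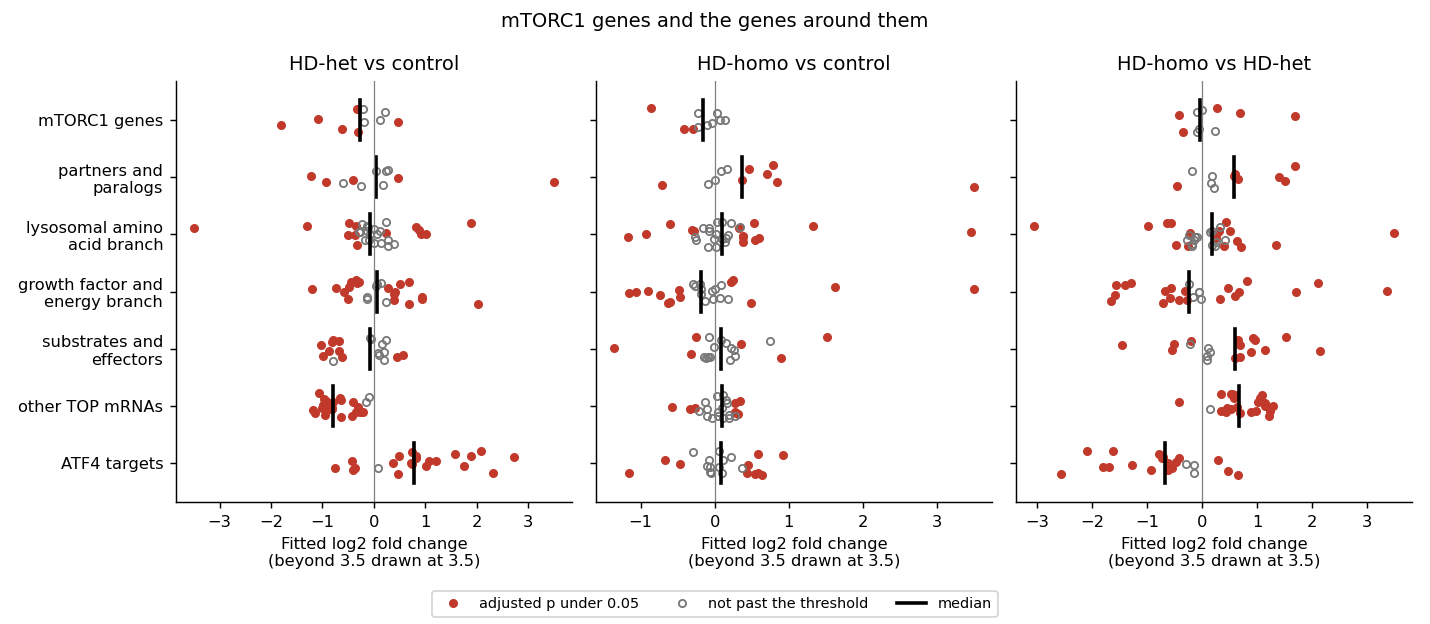
Fitted log2 fold change (horizontal axes, each with its own range) of every tested mTORC1 gene and of 6 lists around them (points, filled red where adjusted p is under 0.05, values beyond 3.5 drawn at 3.5) with the median (bar), in the 3 comparisons. TOP mRNAs lie to the left in HD-het against control cells (22 of 24 lower) and to the right in HD-homo against HD-het cells (22 of 24 higher), and ATF4 targets lie the other way.

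For each member the genes with the most similar course over the 9 libraries were taken from 7753 genes with a mean of at least 10 CPM, by Pearson's r of log2 CPM. These values are a description, since the 9 libraries come from only 3 lines. Mlst8 was most like the ribosomal protein genes Rpl7 and Rps10 (r 0.993 and 0.991), Deptor most like Nfyb and Sp2 (0.986 and 0.984) and Rheb most like Csnk1g3 and Pdcl (0.987 and 0.985). Mtor was most like Ubr1 and Sall2 (0.981 and 0.973), Rptor like Mipep and Abl2 (0.972 and 0.971) and Larp1 like Mcm2 and Ampd2 (0.972 and 0.965). Tsc2 was most like Gbf1 (0.978) and Lats1 (0.942), Akt1s1 like Carhsp1 (0.950) and Safb2 (0.931), and Tsc1 like Nr2c2 and Fbxo25 (both 0.940). Ddit4 was most like Eloc (0.968), which the table also lists under its older symbol Tceb1 with the same values.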

How the data were processed

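Ribosome footprints of 26 to 32 nt from the 80S monosome fraction were sequenced in 9 libraries. The authors deposited raw counts of footprints per gene symbol, neither normalized nor pooled. Their processing notes name cutadapt, Bowtie 1.0.1 and build mm10, while the counting program, annotation and strand setting are not given in the sources used here. Lysates were digested with RNases T1 and A, whose base preferences can shape footprint recovery.

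Of 36410 rows 19597 held only zeros. Totals were 22504543 to 41888701 counts, and errors given are the spread between culture rounds. Counts were fitted in edgeR 4.0.16 (limma 3.58.1, R 4.3.3) with TMM factors, filterByExpr and group means over all 9 libraries, with an adjusted p threshold of 0.05. On simulated HD-het against control data with 11985 genes, 92.5% of 2-fold changes and 49.3% of 1.5-fold changes were recovered. Only 67 genes were changed 1.5-fold, 67 2-fold and 66 4-fold there, and 11 unchanged genes were called. In the real comparison 31.0% of genes were higher and 29.1% lower, so these rates need not hold for it. Coding and transcript lengths came from GENCODE M21 (for coding length in place of the planned RefSeq proteins, so protein identity is not analysed here), positions and promoters from RefSeq GRCm38.p6. DESeq2 1.42.0 was an alternative, as were other scalings, filters, blocks, length and GC offsets (loess, span 0.5; coding length offsets, and offsets for lists and ratios, were added after the data were seen) and leaving out each library.

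The members, the gene lists, the partners named and the tests were chosen with earlier results of these data known. All 10 members are named with each library. Other genes are named from a fixed list of partners or by the likeness rule, apart from some cell type markers and list members.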

Additional observations from a re-analysis of the deposited data

Results flagged for a closer look

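The change against the same control libraries differed between the mutant lines, by edgeR's test of that difference, for 5 of the 10 genes. In that test 34.6% of all genes were higher and 32.8% lower in HD-homo cells, so 5 of 10 was not above the share over all genes. In HD-homo minus HD-het cells on the log2 scale the difference was 1.69 for Deptor, 0.70 for Mlst8, 0.28 for Larp1, -0.34 for Mtor and -0.43 for Rheb. All 3 libraries of 1 line lay apart from all 3 of the other for these 5 genes, as for 69.5% of all genes tested. The Mtor value takes the opposite sign with offsets for length and GC content. Groups of 3 libraries were too small for a check of single outlying libraries.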

How the results depend on the processing

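Under 19 alternatives for each of 30 differences of the 10 genes, direction and side of the threshold held in 500 cases, 13 newly passed, 15 no longer passed and 42 turned sign. Of those that turned, 15 passed the threshold in one of the 2 fits compared, all with offsets for length and GC content, given in the order transcript length, transcript length with the replicate block, coding length. Mtor in HD-het against control cells was then -0.25, -0.25 and -0.26. In HD-homo against HD-het cells Mtor was 0.29, 0.29 and 0.44, Rptor 0.41, 0.41 and 0.31, Tsc1 0.45, 0.45 and 0.26, and Tsc2 0.34, 0.34 and 0.48. These offsets raised the members called between the mutant lines from 5 to 8 in each of the 3 settings, and the cause was not tested. Of all 12678 genes 4123 were not called in that comparison without offsets, 4196 with transcript length and 4145 with coding length offsets. Leaving out 1 library at a time gave 5 to 7 members called in HD-het and 2 to 5 in HD-homo against control cells, with 5 without HD-het replicate 2, and 4 to 5 between the mutant lines.

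The other 27 that turned sign passed in neither fit, 13 of them with offsets. In the order above these were 0.0392, 0.0398 and 0.18 for Mtor, -0.136, -0.137 and -0.0752 for Rheb and 0.187, 0.187 and 0.0896 for Larp1, all in HD-homo against control cells. With transcript length, without and with the block, Deptor was 0.0723 and 0.0764 in that comparison and Tsc1 was -0.0933 and -0.0909 in HD-het against control cells. Between the mutant lines Akt1s1 turned from -0.0022 to 0.0768 with total counts, 0.013 without the filter and 0.0047 with the replicate block, and Tsc1 to 0.0158 with total counts. Leaving out 1 library at a time gave HD-homo differences from control of -0.0064 to 0.123 for Mlst8, -0.203 to 0.0166 for Deptor, -0.0175 to 0.0795 for Rheb and -0.106 to 0.0222 for Larp1, and -0.133 to 0.112 for Akt1s1 between the mutant lines.

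Samples of the same replicate number were not paired by it, since their deviations from the group means correlated between -0.36 and 0.17. With the replicate block alone 6, 3 and 5 members were called for HD-het cells, for HD-homo cells (both against control) and between the mutant lines, and it changed no call of a member. Subunit ratios without overlap numbered 15 to 17 of 21, and ratios of other genes were not counted. Deptor, with 40 to 105 counts per HD-het library, has the least depth of the 10 genes.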
